A study of Schizophyllum commune with 14 samples.

Results

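CFS2 is a gene of the split gill mushroom Schizophyllum commune, and it was followed here as 1 transcript model of 16319 measured by RNA sequencing. It was chosen by the number 12877 that its name carries, after an earlier look at the same libraries had shown its level increasing through fruiting. Its levels are therefore given as a description, without a test. The reference gene table pairs the model with the locus tag SCHCODRAFT_012877 and the symbol CFS2, and gives no product.

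The symbol resembles cfs1 of another mushroom, Coprinopsis cinerea, in which cfs1 encodes a cyclopropane fatty acid synthase that is needed for fruiting body formation. Enzymes of that kind take a methylene group from S-adenosylmethionine and add it across the double bond of an unsaturated acyl chain in a membrane phospholipid, which leaves a cyclopropane ring. That CFS2 encodes such an enzyme is not stated in the sources used here, and no protein sequence was analysed.

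All 14 libraries came from poly(A) RNA of a strain H4-8 dikaryon, made by mating the monokaryons H4-8a and H4-8b and grown from a 5 mm agar plug on MM medium (5 days in the dark at 30 °C, then 10 days at 25 °C with 12 hours of light a day). The groups were vegetative mycelium of the dikaryon, stage 1 primordia of up to 2 mm, stage 2 primordia of 3 to 4 mm with a pit at the tip, cup-shaped young fruiting bodies of 5 to 7 mm, and fully expanded fruiting bodies. Each had 3 biological replicates except stage 2 primordium, which had 2, numbered 2 and 3. Every group is 1 genotype and whole structures, so a change in the level per cell and a change in the share of cells that make the transcript cannot be told apart.

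The libraries held 13708387 to 24052213 uniquely placed reads. Levels are CPM (unique reads relative to the library's total), scaled with a trimmed-mean (TMM) factor per library, which ran from 0.548 in stage 2 primordium replicate 2 to 1.214 in vegetative mycelium replicate 2 and was 0.86 or more in every library except stage 2 primordium replicate 2. The 3 mycelium libraries were read on 1 of 2 flow cells and all fruiting libraries on the other, so in every comparison with mycelium the stage and the flow cell cannot be told apart. The mycelium label was checked with SC6, a hydrophobin of fruiting dikaryons (its match to the reference is less certain). SC6 was at 0.164 to 0.73 CPM in mycelium and at 1.93 CPM or more in all fruiting libraries. It was at 112 to 426 CPM in stage 1 primordium but at 1.93 to 2.21 CPM in stage 2 primordium. The labels of the fruiting stages are thus not checked by it. SC3, a hydrophobin of aerial hyphae, did not separate mycelium from fruiting in 1 direction. It was at 170 to 328 CPM in mycelium, 852 to 2890 in stage 1 primordium and 3.32 to 16.4 in fruiting body.

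The CFS2 model is 1365 bases long, against a gene span of 1824 bases in the reference. Its length is a multiple of 3, as was that of 56.0% of the models. It drew 7724 reads in all. Of these, 0 had more than 1 placement, which allows a share of up to 0.0388% by counting error, so its level did not depend on reads shared with a near-identical copy. In the reference order the nearest gene on one side ends 1728 bases away and the nearest on the other side starts 594 bases away. The reference table used here names no scaffold, so this order and these distances assume that the genes lie on the same one. On that assumption neither overlaps CFS2, though the library kit does not mark strand, so reads of any unlisted antisense transcript would be counted with it.

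CFS2 was low in mycelium. It was at 3.08 CPM in replicate 1, at 2.41 CPM in replicate 2 and at 2.32 CPM in replicate 3, with a mean of 2.60 ± 0.416 CPM (SD, n = 3). These values came from 64, 59 and 54 reads, and their 95% exact Poisson intervals (counting error only, as for those that follow) overlapped. The 3 libraries were thus alike, and on the authors' per-length scale (TPM, transcript abundance relative to all transcripts), CFS2 exceeded 26.0% to 29.5% of all models.

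In stage 1 primordia the libraries differed widely. CFS2 was at 1.75 CPM in replicate 1 (32 reads, interval 1.2 to 2.47), at 11.8 CPM in replicate 2 (231 reads, 10.4 to 13.5) and at 5.88 CPM in replicate 3 (97 reads, 4.77 to 7.18), with a mean of 6.49 ± 5.07 CPM (SD, n = 3). Replicate 1 lay below all 3 mycelium libraries and replicates 2 and 3 above them, so the groups overlapped. The highest value was 6.77 times the lowest, more than the counting intervals allow.

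Among stage 2 primordia CFS2 was at 13.6 CPM in replicate 2 (117 reads, interval 11.2 to 16.3) and at 44.6 CPM in replicate 3 (716 reads, 41.4 to 48.0), with a mean of 29.1 ± 22.0 CPM (SD, n = 2). Both lay above every stage 1 library, the lower only narrowly. That order rests on the scaling: with no factor beyond the library total, stage 2 primordium replicate 2 was at 7.46 CPM and stage 1 primordium replicate 2 at 12.3 CPM, and the authors' TPM were 5.60 and 10.4. In the authors' log2 RPKM table the pair stood at 3.31 and 3.11. That table follows the TMM-scaled values closely for CFS2 (stage 2 minus stage 1 primordium 2.30 against 2.28). It is therefore not a separate check of this order.

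Young fruiting bodies were close together on the TMM scale. CFS2 was at 28.9 CPM in replicate 1, at 32.2 CPM in replicate 2 and at 32.4 CPM in replicate 3, with a mean of 31.2 ± 1.95 CPM (SD, n = 3). All 3 values lay between the 2 stage 2 libraries. They came from 482, 555 and 463 reads, and CFS2 exceeded 65.4% to 68.9% of models in TPM. On that scale the replicates were further apart, at 22.5, 32.3 and 28.1 TPM, with a mean of 27.6 ± 4.91 TPM (SD, n = 3).

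The highest levels were in fruiting bodies. CFS2 was at 98.4 CPM in replicate 1 (2460 reads, interval 94.5 to 102) and at 66.2 CPM in replicate 2 (1133 reads, 62.4 to 70.1). In replicate 3 it was at 50.2 CPM (1261 reads, 47.5 to 53.0), and the mean was 71.6 ± 24.6 CPM (SD, n = 3). The 3 counting intervals did not overlap. Each replicate lay above every library of the other 4 stages, the nearest of which was stage 2 primordium replicate 3 at 44.6 CPM. In TPM it exceeded 78.1% to 88.3% of models, and its mean was 65.7 ± 18.1 TPM (SD, n = 3) against 2.88 ± 0.437 TPM (SD, n = 3) in mycelium.

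**Figure D1:**
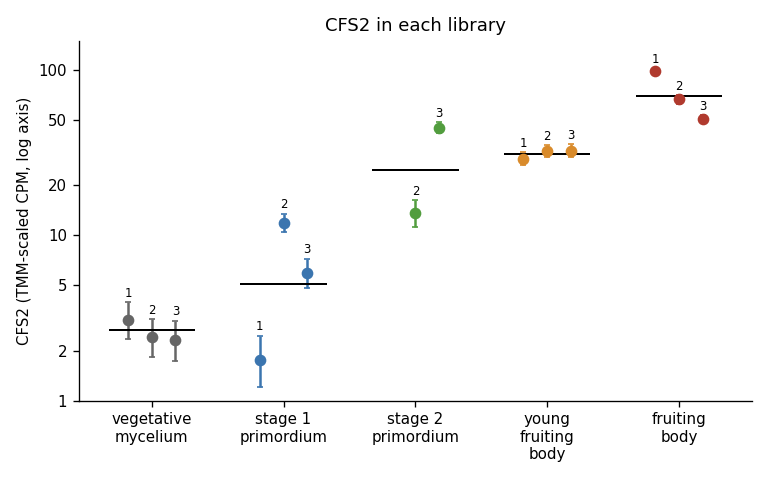
CFS2 in each of the 14 libraries, as TMM-scaled CPM on a log axis; points are libraries labelled with their replicate number, bars are 95% Poisson counting intervals, and black lines are the means of log2(CPM + 0.1) by stage. The fruiting body libraries, at 50.2 to 98.4 CPM, lie above all others. The primordium stages spread far more than their counting intervals, and the fruiting body intervals do not overlap either.

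**Figure D2:**
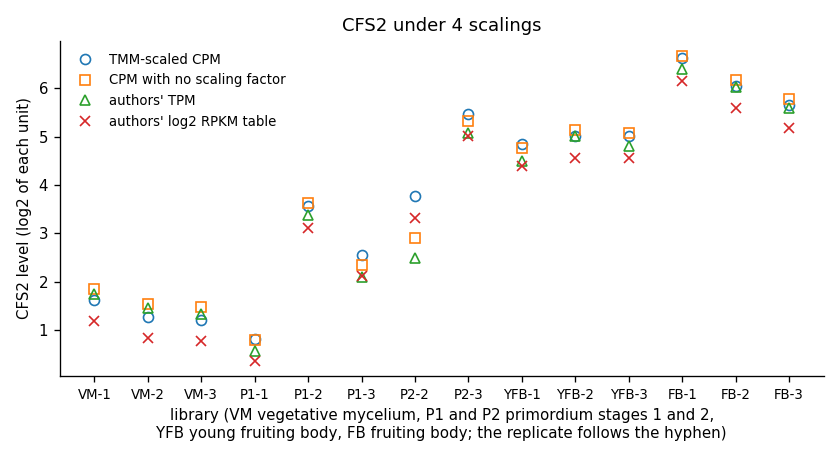
CFS2 in each library as the log2 of TMM-scaled CPM, of CPM with no scaling factor, of the authors' TPM, and in the authors' log2 RPKM table. Stage 2 primordium replicate 2 is at 13.6 CPM with TMM and 7.46 CPM without a factor, the library in which the scales differ most.

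The order of the stage means was thus vegetative mycelium, stage 1 primordium, stage 2 primordium, young fruiting body, fruiting body. Of the neighbours in that order, mycelium and stage 1 primordium overlapped, and so did stage 2 primordium and young fruiting body. Stage 1 and stage 2 primordium did not overlap on the TMM scale, though they did with no scaling factor and in TPM. Young fruiting body and fruiting body did not overlap on any of these scales. The share of all models without overlap was not counted. Of the 14302 models with enough reads to be tested, 208 (1.45%) had stage means that increased at each of these 4 steps.

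Differences of mean log2(CPM + 0.1), each with the standard error (SE) of a difference of means, put sizes on these steps. From mycelium to stage 1 primordium the mean was higher by 0.92 ± 0.80 SE, and 18.1% of the tested models, CFS2 included, had a difference at least as large. From stage 1 to stage 2 primordium it was higher by 2.28 ± 1.16, a difference that 5.28% of models reached. From stage 2 primordium to young fruiting body the difference was 0.33 ± 0.86, well under its SE. From young fruiting body to fruiting body it was 1.14 ± 0.29, reached by 5.10% of models.

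Over the whole span the difference was 4.68 ± 0.31 between fruiting body and mycelium, a ratio of mean CPM of 27.5, and 294 of the 14302 models (2.06%) had one at least as large. Between fruiting body and stage 1 primordium, which shared a flow cell, it was 3.76 ± 0.83, which 212 models (1.48%) reached. Single primordium libraries move these steps. Without stage 1 primordium replicate 1 the difference from mycelium was 1.64, and without its replicate 2 it was 0.31. Without stage 1 primordium replicate 1 the step to stage 2 primordium was 1.57, without stage 2 primordium replicate 2 it was 3.13, and without stage 2 primordium replicate 3 it was 1.48. Without stage 2 primordium replicate 2 the young fruiting body mean was below that of stage 2 primordium (-0.51), and without replicate 3 it was above it (1.14). With no scaling factor the first step was 0.61 and that from stage 2 primordium to young fruiting body 0.88.

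The spread of CFS2 between replicates differed by stage. Its SD of log2 CPM was 1.36 in stage 1 primordium and 1.21 in stage 2 primordium, against medians of 0.28 and 0.33 among models whose stage mean lay within 1 log2 unit of its own. It exceeded the SD of 97.4% of 2737 such models in stage 1 and of 94.4% of 3771 in stage 2. In young fruiting body its SD was 0.09 on the TMM scale, larger than in only 6.85% of 4260 models of like level. That share was not counted on the other scales. In fruiting body the SD was 0.49, larger than in 74.7% of 4008 models of like level (median 0.31). In mycelium the SD was 0.21, larger than in 61.2% of 2583 such models (median 0.18).

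The genes next to CFS2 were chosen by their position in the reference gene order and not by their levels, so they were tested, with edgeR's quasi-likelihood fit over all models and Benjamini-Hochberg adjustment. A gene was called at an adjusted p below 0.05. The reference gives these genes locus tags without a symbol or product, so no role can be stated for them. They are SCHCODRAFT_02498824 and SCHCODRAFT_02498402 on one side, the second being adjacent to CFS2, and SCHCODRAFT_02500613, adjacent, and SCHCODRAFT_02623174 on the other.

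SCHCODRAFT_02498402, 1728 bases from CFS2, had a profile of similar shape. It was at 7.27, 7.48 and 7.09 CPM in mycelium replicates 1 to 3 and at 8.30, 10.7 and 8.49 CPM in stage 1 primordium. It was at 17.9 and 27.1 CPM in stage 2 primordium replicates 2 and 3, and at 27.4, 18.5 and 22.6 CPM in young fruiting body. In fruiting body it was at 26.3, 66.8 and 58.1 CPM, so that replicate 1, the highest for CFS2, was the lowest for its neighbour.

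SCHCODRAFT_02498402 rose from stage 1 to stage 2 primordium (log2 change 1.30 ± 0.34 SE, edgeR adjusted p = 0.00838), with no overlap between the 3 and the 2 libraries on the TMM scale. In the authors' TPM the groups overlapped, with stage 2 primordium replicate 2 at 2.70 and the stage 1 libraries at 2.26 to 3.44. The share of all models without overlap was not counted. SCHCODRAFT_02498402 was higher in fruiting body than in stage 1 primordium (2.46 ± 0.32, edgeR adjusted p = 0.000127) and than in mycelium (2.79 ± 0.32, edgeR adjusted p = 1.34e-05), with all 3 fruiting bodies above all libraries of the other group. Those 2 calls held under all 22 alternatives tried. The call between the primordium stages ended with no scaling factor (0.95, edgeR adjusted p = 0.0763) and without stage 2 primordium replicate 3 (1.02, edgeR adjusted p = 0.0578). From young fruiting body to fruiting body it was not called (1.14 ± 0.30, edgeR adjusted p = 0.0552), though DESeq2 called it (adjusted p = 0.0128), as did edgeR without either stage 2 library or without fruiting body replicate 1. It was also not called from mycelium to stage 1 primordium (0.33 ± 0.31, edgeR adjusted p = 0.399) or from stage 2 primordium to young fruiting body (0.02 ± 0.34, edgeR adjusted p = 0.98). CFS2's own values for the same 6 comparisons, given above, share these libraries.

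Per length, the pair began at a like level and parted. In mycelium SCHCODRAFT_02498402 was at 2.95 ± 0.158 TPM (SD, n = 3) and CFS2 at 2.88 ± 0.437, and in fruiting body they were at 17.5 ± 8.25 and 65.7 ± 18.1 TPM. Across the 14 libraries the Pearson correlation of their log2(CPM + 1) was 0.896 and Spearman's rho 0.89, over points that share stage and scaling. That placed SCHCODRAFT_02498402 at rank 264 of 14301 models by likeness to CFS2, within the top 1.85%. Over the 11 fruiting libraries alone Pearson's r was 0.834. Pearson's r with CFS2 over the 14 libraries was 0.05 for SCHCODRAFT_02498824, -0.36 for SCHCODRAFT_02500613 and 0.39 for SCHCODRAFT_02623174.

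SCHCODRAFT_02500613, on the other side and 594 bases away, was at 20.0 to 32.4 CPM in all 14 libraries. Its stage means ran from 21.8 ± 1.72 CPM (SD, n = 3) in young fruiting body to 26.4 ± 8.46 (SD, n = 2) in stage 2 primordium. In the authors' TPM its mean was instead lowest in stage 2 primordium, at 13.8 ± 1.42 (SD, n = 2). It was at 24.3 ± 0.604 TPM (SD, n = 3) in mycelium, so the even profile rests on the TMM scaling. It was called in none of the 6 comparisons by edgeR (adjusted p from 0.406 to 0.993), and between fruiting body and mycelium its log2 change was -0.01 ± 0.19 SE. One alternative called it once, lower in young fruiting body than in stage 2 primordium without stage 2 primordium replicate 3 (-0.62, edgeR adjusted p = 0.0489).

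SCHCODRAFT_02498824 was highest in stage 1 primordium, where it was at 154, 152 and 138 CPM against 50.5, 45.2 and 38.4 CPM in mycelium. It rose there (1.73 ± 0.32 SE, edgeR adjusted p = 0.000656) under all 22 alternatives. It was lower in fruiting body than in stage 1 primordium (-0.97 ± 0.31, edgeR adjusted p = 0.0286), at 35.1, 89.3 and 103 CPM. That call ended with no scaling factor, with the 2 stages fitted alone, and without stage 1 primordium replicate 1 or 2 (edgeR adjusted p from 0.0653 to 0.115).

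SCHCODRAFT_02623174 was highest in stage 2 primordium, at 1930 CPM in replicate 2 and 554 in replicate 3. It rose from stage 1, where it was at 261, 251 and 361 CPM (2.09 ± 0.46 SE, edgeR adjusted p = 0.00356). Without stage 2 primordium replicate 2 the log2 change was 0.92 (edgeR adjusted p = 0.119). It fell to young fruiting body, at 629, 290 and 294 CPM (-1.62 ± 0.46, edgeR adjusted p = 0.0458), a call with overlapping groups that held under 8 of 22 alternatives. Without stage 2 primordium replicate 2 the log2 change was -0.46 (edgeR adjusted p = 0.7).

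**Figure D3:**
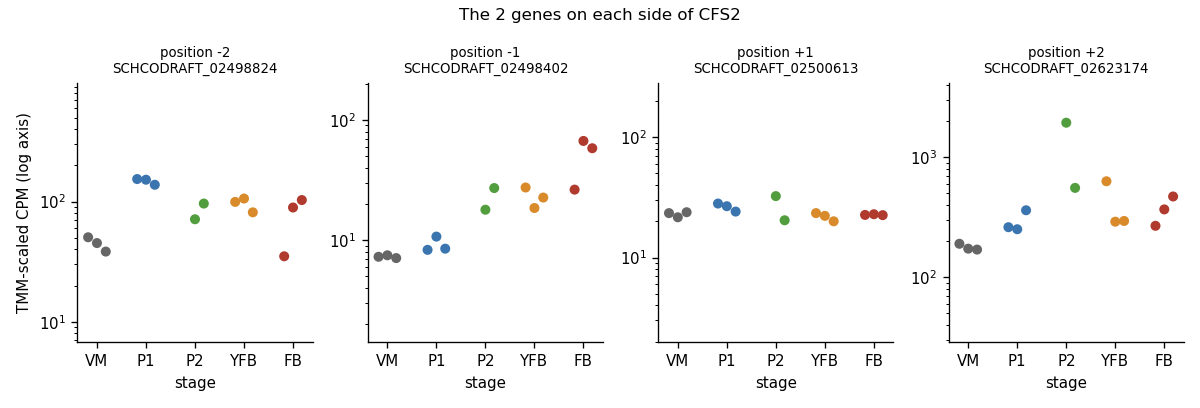
TMM-scaled CPM (log axis, each spanning the same number of folds) of the 2 genes on each side of CFS2, by stage; points are libraries in replicate order (VM vegetative mycelium, P1 and P2 primordium stages 1 and 2, YFB young fruiting body, FB fruiting body). SCHCODRAFT_02498402 goes from 7.28 ± 0.198 CPM in mycelium to 50.4 ± 21.3 in fruiting body, while SCHCODRAFT_02500613 stays between 20.0 and 32.4 CPM.

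Counted over these 4 genes, 1 rose from mycelium to stage 1 primordium, where 22.5% of all models were called higher, 21.4% lower and 44.0% in either direction. From stage 1 to stage 2 primordium 2 of 4 rose (22.2% of all models higher, 19.3% lower, 41.5% either way). From stage 2 primordium to young fruiting body 1 of 4 fell (3.64% of all models higher, 5.08% lower, 8.71% either way). From young fruiting body to fruiting body edgeR called 0 of 4 (2.62% of all models higher, 0.923% lower, 3.54% either way), with 1 of 4 at an unadjusted p below 0.05. For that comparison DESeq2 called 1 and limma voom 0. Fruiting body against stage 1 primordium gave 1 higher and 1 lower (19.5% and 14.5% of all models, 33.9% either way), and fruiting body against mycelium 1 higher (24.4% of all models higher, 17.9% lower, 42.3% either way). Over 4 genes such shares are not read as different from the background. The median log2 change of the 4 genes between fruiting body and mycelium was 0.91, against 0.07 over all models.

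After these values were seen, the view was widened to 5 genes on each side, of which 9 were measured and tested. Between fruiting body and mycelium 2 of the 9 were called higher and 2 lower, with a median log2 change of 0.15 against 0.07 over all models. Among all models 24.4% were called higher and 17.9% lower (42.3% either way), so these counts were near the background and are not read as a result about the 9. Besides SCHCODRAFT_02498402 the other gene called higher was SCHCODRAFT_02623159, at position -5 in the order (0.59 ± 0.21 SE, edgeR adjusted p = 0.0325). SCHCODRAFT_02623176 and SCHCODRAFT_02623177, at positions 3 and 4, were lower (-0.63 ± 0.24 and -0.78 ± 0.18, edgeR adjusted p = 0.0493 and 0.00392). Of the 9, only SCHCODRAFT_02498402 differed by more than 2 log2 units of mean CPM between these stages. SCHCODRAFT_02623177 ran opposite to CFS2 over the 14 libraries (Pearson's r = -0.89, rho = -0.91). The other genes added by the wider view had an r from -0.38 to 0.20.

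**Figure D4:**
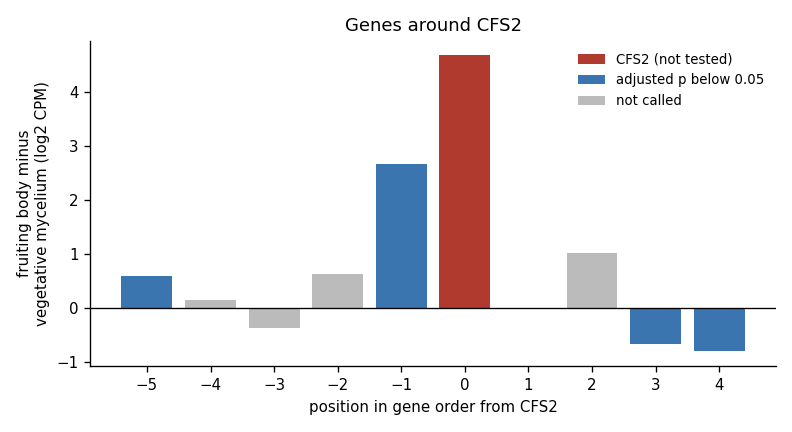
Difference of mean log2(CPM + 0.1) between fruiting body and vegetative mycelium for CFS2 and the genes around it, by position in the reference gene order (position 0 is CFS2); blue bars are called by edgeR at an adjusted p below 0.05, grey bars are not, and CFS2 was not tested. CFS2 stands at 4.68 and the adjacent SCHCODRAFT_02498402 at 2.67, while the other bars lie between -0.80 and 1.02.

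Likeness to CFS2 was measured as the Pearson correlation of log2(CPM + 1) over the 14 libraries for 14301 other models, which had a median r of 0.02. As a description, 241 of them had an r above 0.9. The 10 most alike had an r of 0.981 to 0.964, and the next model outside had 0.961. None of the 10 has a symbol in the reference, so they are named by locus tag, and no shared function or control is stated.

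The most alike was SCHCODRAFT_02499364 (r = 0.981, rho = 0.969), which was at 7.68 ± 0.484 CPM in mycelium and 13.3 ± 5.56 CPM in stage 1 primordium (SD, n = 3 each). It was at 48.0 ± 41.1 CPM in stage 2 primordium (SD, n = 2), at 42.0 ± 11.6 in young fruiting body and at 82.0 ± 21.2 in fruiting body (SD, n = 3 each). Like CFS2 it was lowest in mycelium and highest in fruiting body, with the primordium stages spread widely.

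SCHCODRAFT_02510894 (r = 0.978, rho = 0.982) spanned a larger range, from 0.457 ± 0.117 CPM in mycelium to 63.0 ± 13.0 CPM in fruiting body (SD, n = 3 each). SCHCODRAFT_0256224 (r = 0.976) went from 0.266 ± 0.0667 to 19.7 ± 4.81 CPM over the same stages. SCHCODRAFT_02622792 (r = 0.968) had the highest levels of the 10, at 22.2 ± 1.65 and 196 ± 86.1 CPM. SCHCODRAFT_01053959 (r = 0.965) had the lowest, at 0.221 ± 0.0502 and 7.94 ± 3.51 CPM. The remaining 5, SCHCODRAFT_01193026, SCHCODRAFT_02146162, SCHCODRAFT_01335998, SCHCODRAFT_02636799 and SCHCODRAFT_02525281, had means between these in both stages. The difference of mean log2(CPM + 0.1) between fruiting body and mycelium ran from 3.05 to 6.83 over the 10, with CFS2 at 4.68 inside that range.

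The order of single libraries within a stage can be set beside that of CFS2. In all 10 stage 1 primordium replicate 1 was the lowest of its stage, as it was for CFS2 and for 27.9% of all tested models. In all 10 stage 2 primordium replicate 2 was below replicate 3, as in 54.3% of all tested models. Stage 1 primordium replicate 2 was the highest of its stage in 8 of 10 (33.5% of all), and fruiting body replicate 1 in 7 of 10 (45.6% of all). Since the 10 were chosen by correlation over the same libraries, these counts describe the choice and support nothing further.

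The 3 models least like CFS2 ran the other way. SCHCODRAFT_02625558 (r = -0.944) was at 368 ± 5.54 CPM in mycelium and 61.9 ± 3.55 CPM in fruiting body (SD, n = 3 each). SCHCODRAFT_02256552 (r = -0.934) was at 312 ± 6.53 and 75.7 ± 22.4 CPM, and SCHCODRAFT_02637088 (r = -0.933) at 745 ± 19.3 and 253 ± 47.4 CPM.

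**Figure D5:**
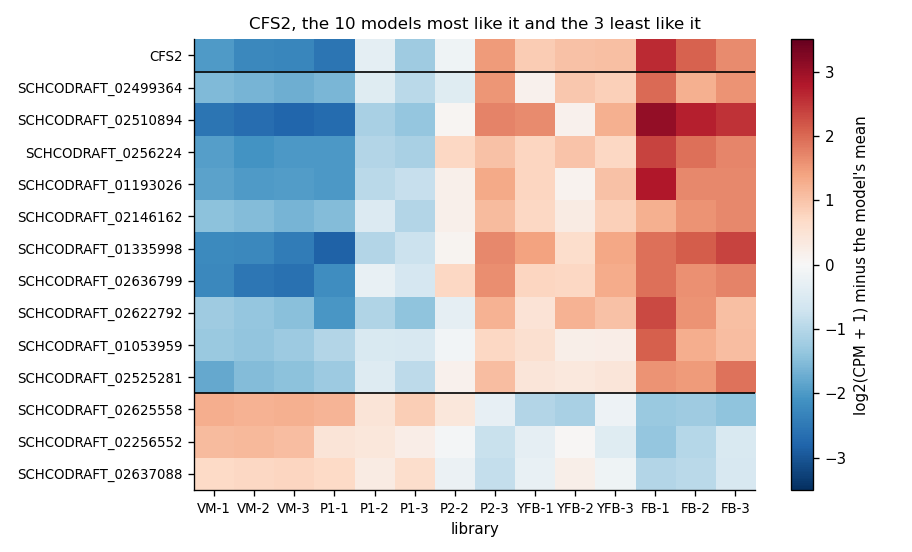
Log2(CPM + 1) minus each model's mean over the 14 libraries, for CFS2 (top), the 10 models most like it (middle, r from 0.981 to 0.964) and the 3 least like it (bottom, r from -0.933 to -0.944); columns are libraries by stage and replicate. In the upper rows stage 1 primordium replicate 1 (P1-1) is blue, below each model's mean, like the mycelium columns.

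Of the models with a symbol in the reference, 18 others had enough reads to be set beside CFS2, 9 with a positive and 9 with a negative r. The highest by Pearson's r over the 14 libraries was Hyd4, a hydrophobin gene (r = 0.66, rho = 0.60). By Spearman's rho it was WC1 (rho = 0.73, r = 0.50), and over the 11 fruiting libraries alone it was bbp2-6 (r = 0.41). Hyd4 differed from CFS2 in stage 1 primordium, where it was at 131 ± 181 CPM against 1.44 ± 0.293 in mycelium (SD, n = 3 each), and over the 11 fruiting libraries alone its r was 0.23. The lowest by Pearson's r over the 14 libraries was Gat1, a GATA-type zinc finger regulator of fruiting (r = -0.81, rho = -0.78), which was at 326 ± 40.4 CPM in mycelium and 48.2 ± 11.9 in fruiting body (SD, n = 3 each). Over the 11 fruiting libraries alone the lowest of the 18 was Bri1 (r = -0.88), with Gat1 at -0.71. The highest r over the 14 libraries among the 18 thus lay below the 0.964 of the tenth most alike model.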

How the data were processed

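The authors deposited raw read counts per transcript model for each library (unique and total gene reads) with TPM from total reads, per the file headers. They also deposited a series table of log2 RPKM, used here as an alternative. For CFS2 that table follows the TMM-scaled values closely, so it is no separate check of the scaling. The tools below stand in the submitters' processing notes with no role: limma 3.18.13, edgeR 3.4.2 and R 3.0.2. No aligner, counting setting or genome build is named there. Model numbers from 2000000 up were matched to locus tags with an offset of 287 (14009 matches, next best offset 1180), and 16024 of 16319 models matched.

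The test ran on unique reads in R 4.3.3 with edgeR 4.0.16. After filterByExpr (14302 models kept) and TMM, 1 robust quasi-likelihood model with stage as its term covered the 14 libraries. Tests were two-sided with Benjamini-Hochberg adjustment (threshold 0.05). The procedure was tested on simulated data for fruiting body against young fruiting body only, with the same dispersion for every model. That simulation does not cover the wide spread of the primordium stages. The SE of a fitted change is its size over the square root of F. Alternatives included DESeq2 1.42.0 and limma 3.58.1 (voom).

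Named genes were CFS2, the 2 genes on each side, the 10 models most and 3 least like it, and the highest and lowest by likeness of those with a symbol. Lists by protein sequence (relatives of CFS2, enzymes of fatty acid desaturation and of the methyl donor) had been planned, but no protein table was used here. CFS2 and the lists were chosen with earlier results of these data known.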

Additional observations from a re-analysis of the deposited data

How the results depend on the processing

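Of 70 alternative CFS2 differences, 67 moved by less than the pooled replicate SD. That wide limit cannot show stability, as 0.31 in place of 0.92 (first step) passed. With a pseudocount of 1 CPM fruiting body minus mycelium was 4.28, not 4.68. Leaving out 1 library of the stages compared, the differences ran from 0.31 to 1.64 (stage 1 primordium minus mycelium), 1.48 to 3.13 (stage 2 minus stage 1 primordium), -0.51 to 1.14 (young fruiting body minus stage 2 primordium), 0.89 to 1.37 (fruiting body minus young fruiting body), 3.01 to 4.37 (fruiting body minus stage 1 primordium) and 4.43 to 4.91 (fruiting body minus mycelium). The reversal (-0.51) came without stage 2 primordium replicate 2, leaving 1 library there.

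The number of the 4 neighbours called, for the comparisons in that order (numbered 1 to 6), was 1, 2, 1, 0, 2 and 1. It was 1 without any 1 library for comparison 1, and ran from 1 to 3, 0 to 2, 0 to 1, 1 to 2 and 1 to 3 for the others. With the 2 stages fitted alone it was 2, 3, 0, 1 and 2 for comparisons 1, 2, 3, 5 and 6, and with no scaling factor 0, 1 and 2 for 3, 5 and 6. With a replicate block or limma voom it was 0 for comparison 3. DESeq2 gave 1 for comparison 4 and 2 for 6. The cause of these changes was not tested.

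Over all models, calls for stage 2 against stage 1 primordium were 5930, and 3939 with the stages fitted alone and 3069 without stage 2 primordium replicate 2. For young fruiting body against stage 2 primordium they were 1246, with DESeq2 2365, voom 807, a replicate block 201, and 0 with the stages fitted alone (2139 at an unadjusted p below 0.05) or without stage 2 primordium replicate 2 (1636), and up to 3621 without replicate 3. For fruiting body against young fruiting body they were 506, with DESeq2 1351, no scaling factor 225, a replicate block 235, and 0 with the stages fitted alone (2253 unadjusted) or without young fruiting body replicate 3 (2859). With no scaling factor the share of calls that were higher went from 51.3% to 32.1%, 53.5% to 32.6%, 41.7% to 87.8%, 73.9% to 85.3%, 57.4% to 75.8% and 57.7% to 49.5% over the 6 comparisons, and the median log2 change of all models became -0.30, -0.37, 0.53, 0.08, 0.20 and -0.09.

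No shared deviation of same-numbered libraries was seen. Deviations from stage means correlated at a median of -0.05 for same-numbered libraries of different stages (26 pairs, 3 above 0.1) and 0.03 for others (52 pairs, 14 above 0.1). These values cannot show whether same-numbered libraries were grown or handled together. With a replicate block the CFS2 differences were 0.92, 2.18, 0.44, 1.14, 3.76 and 4.68. Of the 10 models most like CFS2, 3 were among the 10 by Spearman's rho, 6 over the 11 fruiting libraries and 7 in the authors' log2 RPKM table.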
